A study of Homo sapiens with 6 samples.

Results

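The centrosomal protein genes (CEP), the intraflagellar transport genes (IFT) and the Bardet-Biedl syndrome genes (BBS) were compared between libraries labelled TRIM25 knockdown and control libraries of a glioblastoma cell line. Members were every gene whose symbol begins with CEP, IFT or BBS followed by a digit: 61 of 28265 genes, with 38 CEP, 15 IFT and 8 BBS symbols. Of these, 58 had enough counts to be tested (37 CEP, 13 IFT and 8 BBS). In the libraries labelled knockdown, 12 of 37 CEP genes rose and 1 fell, and 0 of 13 IFT and 0 of 8 BBS genes passed the test, beside 12.2% of all tested genes called higher and 11% lower. Most of the genes that rose have long transcripts, and long transcripts of all kinds rose more often in these libraries. Transcript length is therefore set beside the family results.

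LN229 is an established human glioblastoma line grown as a monoculture in serum. Total RNA was sequenced in 6 libraries: 3 with the genotype label WT, whose titles carry NC, are called the control, and 3 with a TRIM25 knockdown label, made with shTRIM25, a short hairpin against this ubiquitin ligase gene, are called the labelled knockdown. The labels do not say whether the controls carried a hairpin, whether a line was 1 clone, or whether replicates were separate cultures, so p-values measure the spread between these libraries, which may be technical. Total counts ranged from 11349865 to 16404725 per library. TRIM25 itself gave 35.3, 35.8 and 35.6 CPM (counts scaled to a common library total) in the control and 80.3, 80.0 and 88.5 CPM in the labelled knockdown. It was thus 2.34-fold higher in the libraries labelled knockdown (log2 fold change 1.22 ± 0.07 SE, n = 3 per group, edgeR adjusted p = 3.23e-09), against the direction of the label, and every "higher" or "lower" below is relative to the labels only.

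Markers of the line were present: VIM ranged from 2935 to 3653 CPM, NES from 602 to 739 CPM and CD44 from 568 to 615 CPM, whereas GFAP stayed at or under 0.581 CPM and CHI3L1 at or under 0.126 CPM. Of the line's list of 10 markers 8 were tested, NES was higher, and SOX2, OLIG2 and S100B were lower. Defining markers of other cell types were near 0: PTPRC of leukocytes was at most 0.549 CPM, PECAM1 of endothelium 0.381 CPM, EPCAM of epithelium 0.264 CPM and RBFOX3 of neurons 0.145 CPM. The summed lists reached higher levels in places. The leukocyte list, nearly all of it CD68, was at 45.05 to 47.2 CPM in the control and 57.8 to 73.02 CPM in the labelled knockdown, with AIF1 at 0. The epithelial list, mostly KRT18 and KRT8, was at 102 to 115 CPM against 104 to 123 CPM, with KRT19 and KRT5 at 0. The neuron list, mostly MAP2 and TUBB3, was at 410 to 432 CPM against 365 to 373 CPM, and the endothelial list at 2.60 to 3.20 CPM against 2.11 to 2.74 CPM. Their part in the results was not tested. Among the tested genes of those lists, CD68 and SYT1 were higher, and KRT14, SYP, SNAP25, MAP2 and TUBB3 were lower. In bulk RNA, fewer cells of a type and less RNA per cell cannot be told apart.

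Centrioles are barrels of microtubules that duplicate once per cell cycle and, with the pericentriolar material around them, form the centrosome. In a resting cell the older centriole can dock at the membrane through its appendages and template a primary cilium, an antenna for Hedgehog and other signals. The CEP symbols cover structurally unrelated proteins of the centriole, its appendages and satellites, and the cilium base. IFT proteins form the trains that carry cargo along the cilium, in a retrograde complex (IFT-A) and an anterograde complex (IFT-B). Most BBS proteins form the BBSome, a coat that moves membrane proteins out of and into the cilium.

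Promoters are shown because members that rose together can be compared with those that did not for the cell cycle element named CHR (letters TTTGAA) and for the X-box of ciliary genes. RefSeq promoter windows (build GRCh38.p14, 250 bases before each start) were found for 53 of 61 members, with 64 promoters, and for 27305 genes in all, and a gene was counted when any of its promoters held the letters on either strand. TTTGAA stood in the promoters of 5 of 12 CEP genes that rose (41.7%), 4 of 19 CEP genes that did not pass (21.1%), 1 of 14 IFT genes, 0 of 7 BBS genes and 16.1% of all genes. The sets differ in base content: median promoter GC was 62.0% for CEP genes that rose, 66.4% for those that did not pass and 58.0% for all promoters. The 5 windows are printed 5′ to 3′ on the gene's strand, with the TTTGAA match, or TTCAAA where it lies on the opposite strand, in capitals. They are CEP152 at chr15:48811220-48811271 (minus strand), CEP192 at chr18:12991145-12991196 (plus), CEP290 at chr12:88142187-88142238 (minus), CEP295 at chr11:93661611-93661662 (plus) and CEP57 at chr11:95789924-95789975 (plus).
CEP152: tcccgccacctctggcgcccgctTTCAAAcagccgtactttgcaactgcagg
CEP192: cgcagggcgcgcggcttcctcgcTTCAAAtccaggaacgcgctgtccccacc
CEP290: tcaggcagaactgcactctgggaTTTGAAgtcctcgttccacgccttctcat
CEP295: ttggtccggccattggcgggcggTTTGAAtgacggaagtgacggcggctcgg
CEP57: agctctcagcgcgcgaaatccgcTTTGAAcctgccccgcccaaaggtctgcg

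The X-box is bound by RFX factors and consists of inverted GTTNCC and GGNAAC arms with a gap of 0 to 3 bases. It was found whole in the promoters of CEP135, which rose, and CEP41, which did not pass the test (3.77% of members against 0.798% of all genes). Both windows are shown with the whole element in capitals: CEP135 at chr4:55948865-55948924 (plus strand) and CEP41 at chr7:130441139-130441199 (minus).
CEP135: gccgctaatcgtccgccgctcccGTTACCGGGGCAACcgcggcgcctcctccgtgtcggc
CEP41: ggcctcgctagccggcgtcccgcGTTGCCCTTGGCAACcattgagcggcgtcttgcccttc

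The GTTGCC arm alone, which can overlap the whole X-box, occurred in 5 of 14 IFT genes (35.7%), 2 of 7 BBS genes (28.6%), 8 of 32 CEP genes and 12.3% of all genes, and in 2 of the 12 CEP genes that rose. CCAAT was found in 52.8% of members against 37.0% of all genes, and CACGTG in 11.3% against 7.73%. TTTCCCGC or TTTGGCGC, forms of the E2F site, occurred in 1 member, CEP63 (1.89% against 2.36% of all genes), and the consensus motifs of NRF1 and YY1 in none. A match is a string of letters and does not show binding.

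Among all genes, 14315 were tested, of which 12.2% were called higher and 11% lower at an adjusted p under 0.05. The 37 tested CEP genes gave 12 higher (32.4%), 1 lower (2.7%) and 24 that did not pass, with a median log2 fold change of 0.11 against -0.0038 over all genes. Their fold changes ranged from -0.71 to 0.55 on the log2 scale, 27 positive and 10 negative. These CEP symbols include the pseudogene CEP170P1 and the noncoding transcript CEP83-DT, which has the lowest value. Without both, 12 of 35 CEP genes were higher (34.3%) and 1 lower, with values from -0.41 to 0.55. The 3 libraries of the labelled knockdown lay wholly above the 3 control libraries for 15 CEP genes (18.3% of all genes did so) and wholly below for 2 (19% of all genes). CEP genes took 0.133% to 0.142% of all counts in the control and 0.148%, 0.161% and 0.167% in the labelled knockdown, without overlap on this sum. The sum is not adjusted for transcript length. Abundant genes weigh most in it, such as CEP170 (mean 174 CPM against 238 CPM) and CEP350 (87.8 CPM against 128 CPM).

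**Figure D1:**
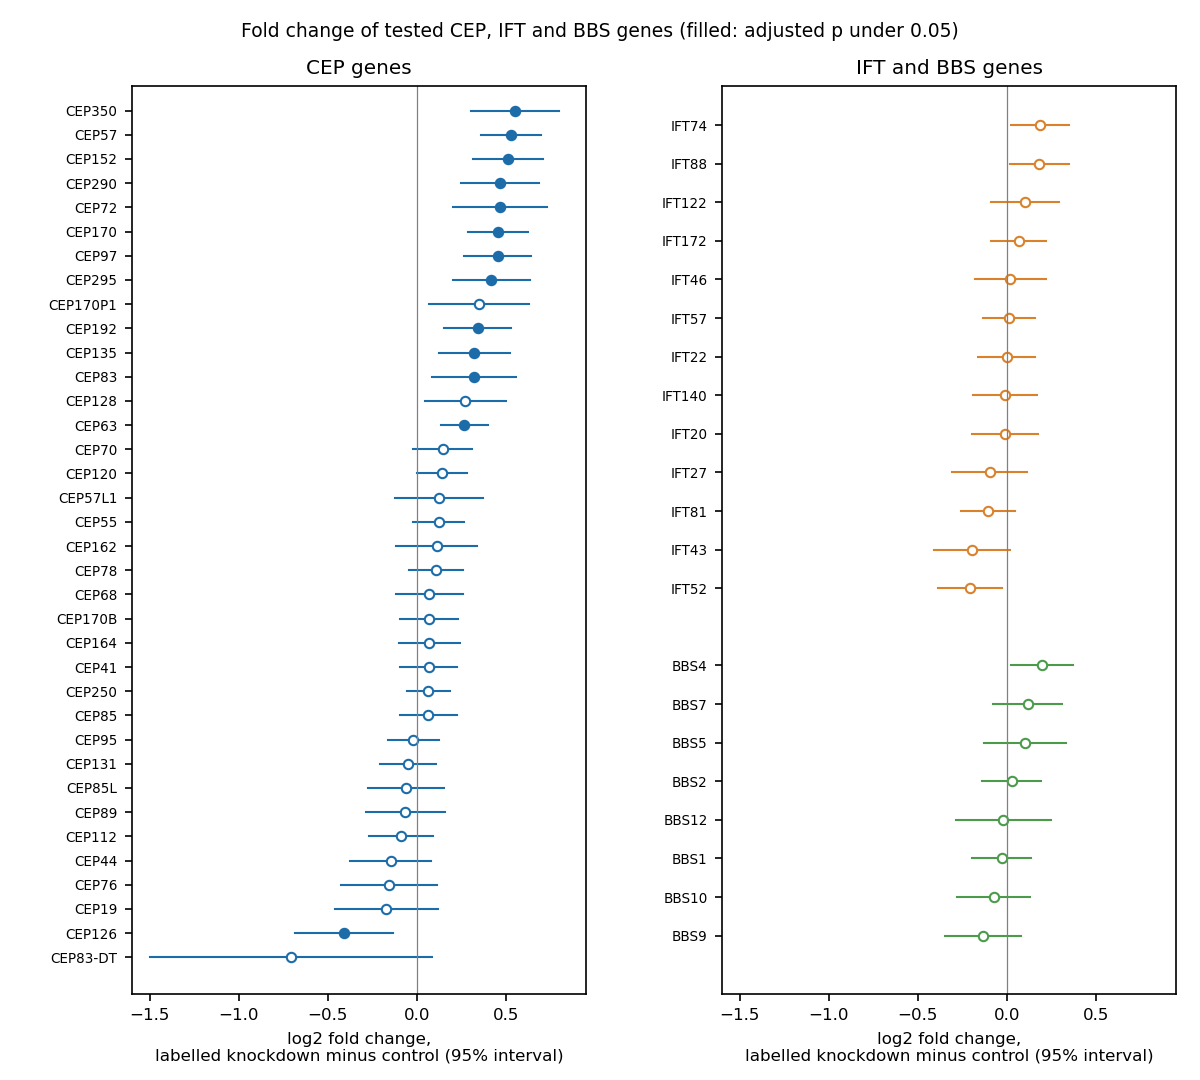
Log2 fold change, labelled knockdown minus control, with its 95% interval for tested members (1 is not shown), grouped by family and filled at an adjusted p under 0.05 (x axis in log2 units, 0 is no difference). The 12 CEP genes called higher lie between 0.27 and 0.55 and CEP126, called lower, at -0.41, while all IFT and BBS intervals end at or below 0.37.

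Roles were assigned by hand with earlier results of these data known. The first role joined proteins of PLK4 recruitment, of the ring around the parent centriole and of the cartwheel. PLK4 is the kinase that starts centriole duplication. This mixed set held 5 of the 12 genes that rose, out of 7 tested members with this role (median log2 fold change 0.32). Of all genes 12.2% were higher, and 15.3% and 27.6% in the length bins, described below, that hold most CEP genes; these shares are the background for the counts by role that follow. CEP152, the scaffold that binds PLK4, gave 34.8, 34.2 and 28.7 CPM in the control and 40.2, 49.5 and 49.3 CPM in the labelled knockdown. It was 1.43-fold higher (log2 fold change 0.51 ± 0.09 SE, edgeR adjusted p = 0.000834). CEP57, which holds CEP152 and CEP63 in a ring around the parent centriole, read 26.2, 27.5 and 25.5 CPM in the control and 35.0, 38.0 and 40.7 CPM in the labelled knockdown. All 3 labelled knockdown libraries were above all 3 controls for both genes. The CEP57 rise was 1.44-fold (0.53 ± 0.08 on the log2 scale, edgeR adjusted p = 0.000164).

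CEP63, the ring partner of CEP152, gave 66.2, 70.1 and 67.8 CPM against 79.6, 82.2 and 83.5 CPM, groups that did not overlap, and was 1.20-fold higher (0.27 ± 0.06, edgeR adjusted p = 0.00571). CEP192, a scaffold of the pericentriolar material that also recruits PLK4, read 40.1, 34.2 and 34.0 CPM against 41.9, 43.7 and 51.2 CPM. CEP192 was 1.27-fold higher (0.34 ± 0.09, edgeR adjusted p = 0.0109), with control 1 close to the lowest labelled knockdown library. CEP135, whose promoter holds the X-box match printed above, encodes a protein that links the cartwheel to the centriole wall. CEP135 gave 15.2, 15.4 and 15.9 CPM against 17.2, 19.8 and 20.9 CPM, a rise without overlap (0.32 ± 0.10, edgeR adjusted p = 0.0214). The other two with this role, CEP57L1 (log2 fold change 0.12) and CEP85 (0.07), did not pass. The calls of CEP192 and CEP135 depended on single libraries: CEP192 missed the threshold without control 2 (edgeR adjusted p = 0.0717), control 3 (0.0587) or labelled knockdown 3 (0.0582), and CEP135 missed it in 5 of the 6 fits that left out a library, all but that without labelled knockdown 1 (up to 0.101).

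Of 7 genes for centriole elongation, maturation and capping, CEP97 and CEP295 rose. CEP97, which with CCP110 caps the growing end of the centriole, read 33.1, 35.3 and 32.4 CPM in the control and 41.0, 43.2 and 52.9 CPM in the labelled knockdown, 1.37-fold higher (0.45 ± 0.09, edgeR adjusted p = 0.00163). CEP295, needed for a new centriole to become a centrosome, gave 28.3, 28.5 and 22.5 CPM against 30.7, 35.4 and 39.3 CPM, 1.34-fold higher (0.42 ± 0.10, edgeR adjusted p = 0.00713). The groups did not overlap for either gene, but without control 3 CEP295 missed the threshold (edgeR adjusted p = 0.0513). CEP120 (log2 fold change 0.14), CEP78 (0.11), CEP44 (-0.15) and CEP76 (-0.16) did not pass.

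Appendages of the older centriole gave 1 rise in each set. CEP83, the root of the distal appendages that dock the centriole to the membrane, read 12.5, 12.9 and 10.3 CPM against 13.7, 14.4 and 16.1 CPM (0.32 ± 0.11, edgeR adjusted p = 0.0458), while CEP164 (0.07) and CEP89 (-0.06) did not pass. CEP83 had the highest adjusted p of the 12 rises and missed the threshold in the same 5 fits (edgeR adjusted p up to 0.233). CEP170, a marker of the subdistal appendages that anchor microtubules, gave 194, 172 and 156 CPM against 213, 245 and 257 CPM. That was a 1.37-fold rise without overlap (0.46 ± 0.08, edgeR adjusted p = 0.000552). CEP128, the other subdistal gene, had a log2 fold change of 0.27 with an adjusted p of 0.0777 from edgeR. Reads of CEP170 and of its pseudogene CEP170P1 may be split by the authors' counting, since 3864 of the 4587 bases of the pseudogene transcript align to CEP170 at 99.1% identity. CEP170P1 had a log2 fold change of 0.35 (edgeR adjusted p = 0.0661).

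At the cilium base, the transition zone and the satellites, 3 of 8 genes rose and 1 fell. CEP350, a large protein that anchors microtubules at the centriole, had the largest fold change of the 13 called members: 105, 82.7 and 75.4 CPM in the control and 104, 129 and 152 CPM in the labelled knockdown (1.47-fold, 0.55 ± 0.12, edgeR adjusted p = 0.00269). Its groups overlapped, since labelled knockdown 1 lay just under control 1, and DESeq2 did not call it (DESeq2 adjusted p = 0.0522). CEP290, the gatekeeper of the transition zone, read 30.1, 29.6 and 30.8 CPM against 34.4, 40.04 and 49.8 CPM (0.47 ± 0.10, edgeR adjusted p = 0.00378). CEP72, a satellite protein, gave 6.42, 6.02 and 6.01 CPM against 9.41, 8.13 and 8.04 CPM (0.47 ± 0.13, edgeR adjusted p = 0.0129). Both were 1.38-fold higher without overlap, but CEP72 missed the threshold without control 2 (edgeR adjusted p = 0.0543) or control 3 (0.0509).

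CEP126, a centrosomal protein that takes part in cilium formation, was the member that fell, from 9.43, 7.40 and 8.35 CPM to 6.33, 6.72 and 6.07 CPM. The groups did not overlap and the decrease was 1.33-fold (-0.41 ± 0.13, edgeR adjusted p = 0.0318). It missed the threshold without control 1 (0.130), control 3 (0.0777), labelled knockdown 2 (0.0663) or labelled knockdown 3 (0.0994), and DESeq2 called 10 CEP genes higher (9.76% of all genes) and 0 lower (8.21%). CEP162, CEP41, CEP131 and CEP19, the rest of this set, had log2 fold changes between -0.17 and 0.11 and did not pass.

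**Figure D2:**
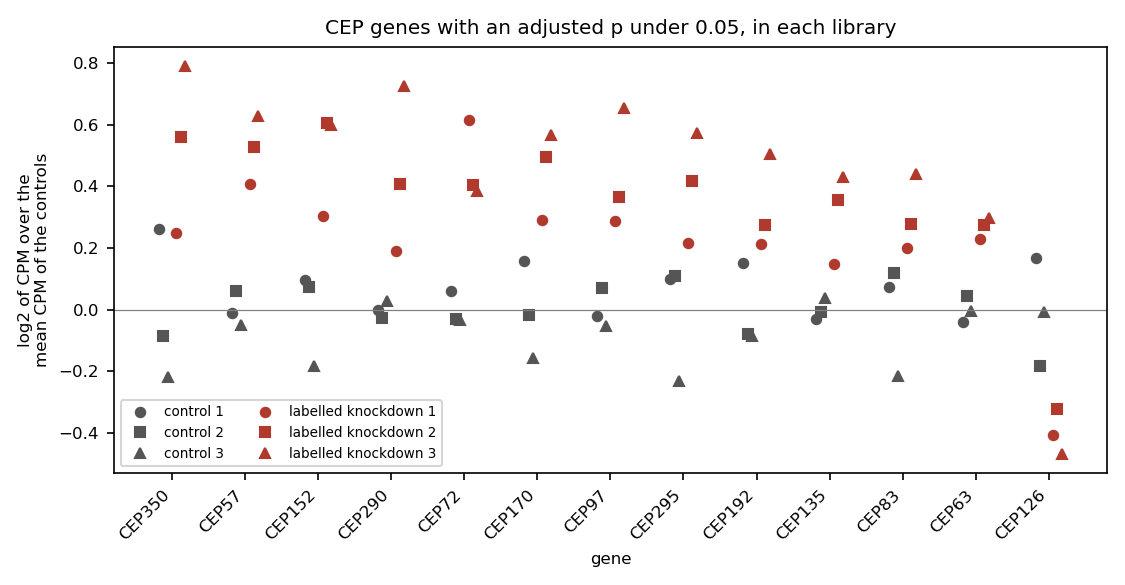
CPM in each of the 6 libraries for the 13 called CEP genes, divided by the control mean of the gene and shown on a log2 axis, with 1 point per library. CEP350 is the gene in which a labelled knockdown library (104 CPM) lies under a control library (105 CPM), and CEP126 is the gene whose labelled knockdown libraries lie under the controls.

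Without any single library, 7 of the 12 rises still passed (CEP350, CEP57, CEP152, CEP290, CEP170, CEP97 and CEP63). The number of CEP genes called higher was lowest without control 3 (7) and highest without labelled knockdown 1 (16). Other roles gave no call: the linker between centrioles (CEP250 and CEP68) and the midbody (CEP55). CEP55, which acts in the last step of cell division, and CEP95 were, with CEP170, the CEP genes with the most reads per length. CEP55 read 74.0, 79.4 and 82.5 CPM against 80.5, 87.9 and 88.5 CPM, overlapping groups with a log2 fold change of 0.12 (95% interval -0.02 to 0.27). CEP95 stayed between 50.1 and 56.5 CPM in all 6 libraries (-0.02, interval -0.16 to 0.12). The other 4 remaining CEP proteins (CEP70, CEP85L, CEP112 and CEP170B) and the transcript CEP83-DT did not pass either, the latter resting on about 1 CPM (-0.71, interval -1.50 to 0.08).

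None of the 13 tested IFT genes was called by edgeR, DESeq2 or limma-voom, against 12.2% higher and 11% lower among all genes with edgeR. At an unadjusted p under 0.05 there were 3 (35.9% of all genes). Their median log2 fold change was 0.00005, and the 95% intervals of single genes reached from -0.41 to 0.35. IFT52, a core subunit of the anterograde complex, gave 31.5, 31.8 and 30.4 CPM in the control and 23.7, 28.3 and 29.02 CPM in the labelled knockdown. These groups did not overlap, and the difference of -0.21 ± 0.09 missed the threshold (edgeR adjusted p = 0.0911). IFT74 (0.18) and IFT88 (0.18), of the same core, lay on the other side of 0 with edgeR adjusted p-values of 0.0965 and 0.107.

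Per length, IFT20 and IFT57 of the peripheral IFT-B set, with IFT52, were the most abundant IFT transcripts. IFT20 read 22.8, 23.7 and 22.0 CPM against 23.7, 24.2 and 20.4 CPM, and IFT57 read 47.6, 48.5 and 50.2 CPM against 50.1, 46.7 and 50.6 CPM. The groups overlapped for both, with 95% intervals of -0.20 to 0.18 and -0.13 to 0.16. The retrograde subunits with an IFT symbol, IFT122 (0.10), IFT140 (-0.01) and IFT43 (-0.20), did not pass. IFT80 could not be tested, with 12, 4 and 2 counts in the control and 3, 7 and 10 in the labelled knockdown. The files also list the readthrough gene TRIM59-IFT80, which had 52, 37 and 40 counts against 54, 48 and 71 and a log2 fold change of 0.62 ± 0.17 (edgeR adjusted p = 0.0148), and how reads of IFT80 were divided between these rows was not tested. IFT74-AS1 (at most 2 counts per library) and CEP295NL (at most 9) were untested too.

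No BBS gene of 8 was called by edgeR, DESeq2 or limma-voom, with 1 at an unadjusted p under 0.05. The median log2 fold change was 0.0036, single genes ranged from -0.13 (BBS9) to 0.20 (BBS4), and their intervals reached from -0.35 to 0.37. BBS4, a BBSome subunit, read 26.7, 23.6 and 25.7 CPM against 27.1, 29.8 and 30.1 CPM, groups that did not overlap (0.20 ± 0.08, edgeR adjusted p = 0.0952). BBS2 gave 46.9, 45.04 and 52.7 CPM against 51.3, 45.3 and 50.6 CPM, and BBS1 gave 36.0, 32.7 and 38.9 CPM against 35.9, 34.9 and 34.8 CPM. Both had overlapping groups, with intervals of -0.14 to 0.19 and -0.20 to 0.14. BBS10 and BBS12, chaperonin-like proteins that help to assemble the BBSome, had log2 fold changes of -0.07 and -0.02.

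**Figure D3:**
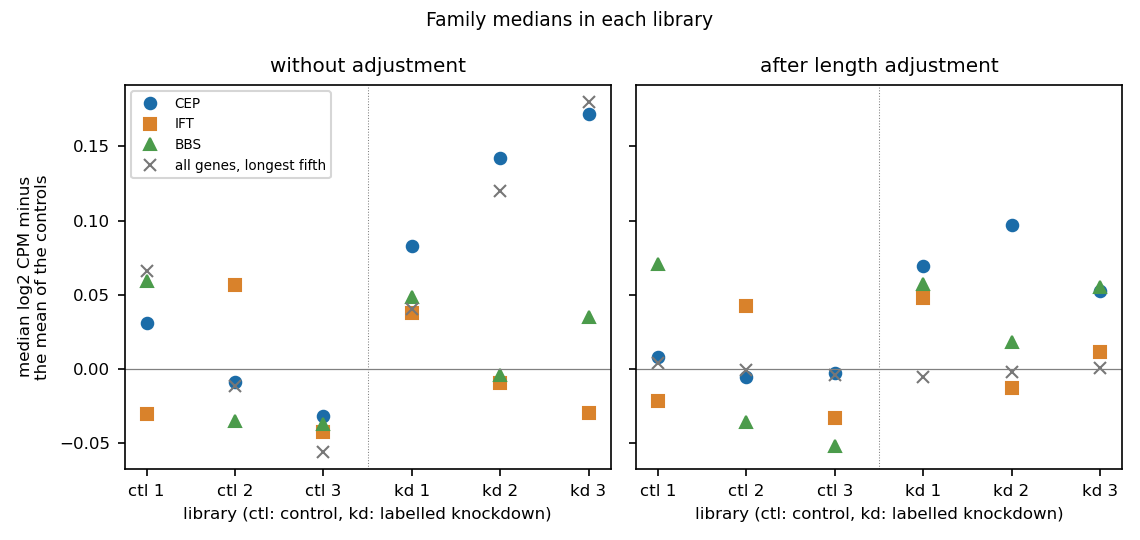
Median over the tested members of each family, per library, of log2 CPM relative to the control mean of each gene, with the genes of the longest length bin for comparison, before (left) and after (right) the length trend was removed. On the left the CEP median was 0.08, 0.14 and 0.17 in the labelled knockdown libraries, and the longest bin gave 0.04, 0.12 and 0.18. IFT and BBS stayed there between -0.04 and 0.06 in all 6 libraries. On the right the labelled knockdown libraries gave 0.07, 0.10 and 0.05 for CEP. They gave 0.06, 0.02 and 0.06 for BBS, and 0.05, -0.01 and 0.01 for IFT. In the controls on the right, BBS ranged from -0.05 to 0.07, IFT from -0.03 to 0.04 and CEP from -0.01 to 0.01.

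The 3 families differ in transcript length as used by the authors. The tested CEP genes had a median length of 5803 bp (1085 to 15436), and 6229 bp (2158 to 15436) without CEP170P1 and CEP83-DT. The median was 3569 bp (1233 to 6716) for IFT genes, 3400 bp (2744 to 5285) for BBS genes and 3592 bp for all tested genes. Their levels differed as well: the median FPKM (reads scaled for transcript length and for library total) in the control was 4.53 for CEP, 9.59 for IFT, 5.55 for BBS and 7.46 for all genes. Across all genes the log2 fold change rose with length (Spearman 0.30 over 14315 genes, a description across genes that share the 6 libraries), and so it did over the 58 members (0.39), the 37 CEP (0.22) and the 13 IFT genes (0.57), with -0.52 over the 8 BBS genes.

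When all tested genes were divided into 5 bins of equal size by length, the share called higher went from 3.32% in the shortest bin (55 to 1941 bp) through 5.73%, 9.29% and 15.3% to 27.6% in the longest (6306 to 93098 bp). In that longest bin 7 of 16 CEP genes rose (43.8%), while their median log2 fold change, 0.12, was close to that of all genes of the bin, 0.11. CEP genes of 4301 to 6305 bp gave 4 rises in 10, with a median of 0.21 against 0.05. Among CEP genes of 2968 to 4300 bp there was 1 rise in 6 (16.7%), CEP57 with 3535 bp, and below 2968 bp there was 0 in 5. Not every long member rose: CEP250 (15436 bp, log2 fold change 0.07), CEP78 (11608 bp, 0.11) and CEP41 (9460 bp, 0.07) did not pass, and CEP126 (7730 bp) fell (6.71% of all genes in the longest bin were lower).

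Within the lengths that the BBS genes span, 2744 to 5285 bp, all 3 families can be set side by side. There 2 of 10 CEP genes rose, 0 of 6 IFT genes and 0 of 8 BBS genes, and 10.3% of the 5115 genes of all kinds. CEP57 and CEP72 are the rises of this window. The gap between families was smaller here than over all lengths, and it was not tested.

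**Figure D4:**
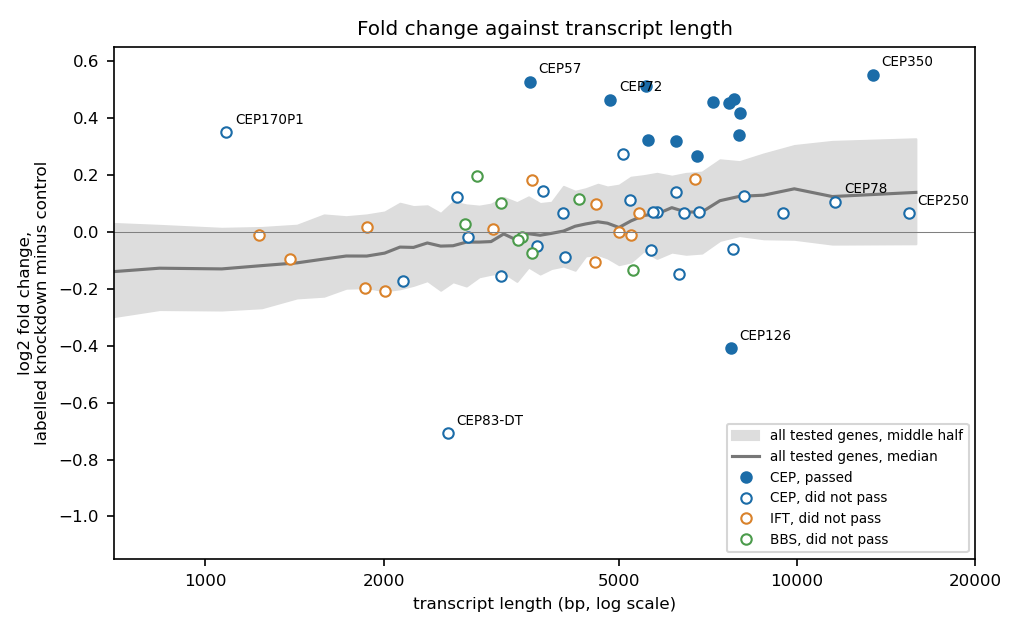
Log2 fold change, labelled knockdown minus control, against transcript length in bp (log axis), with 1 point per tested member coloured by family filled where it passed, and a line and grey band for the running median and interquartile range of all tested genes. The line rises with length, and CEP members reach the greatest lengths, up to 15436 bp.

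Counts were then refitted with each library's own trend of level on length removed as an offset, after which the correlation with length over all genes was -0.01. In that fit 13 CEP genes were higher (35.1%, against 12.4% of all genes) and 1 was lower (13.2% of all genes). Of the 12 rises 11 were kept, with smaller values for most: CEP350 went from 0.55 to 0.39, CEP290 from 0.47 to 0.36 and CEP192 from 0.34 to 0.23, while CEP57 had 0.53 before and 0.54 after. CEP83 was lost (0.25, edgeR adjusted p = 0.0739), and CEP170P1 and CEP55 passed. CEP170P1 was adjusted with the authors' length of 1085 bp, and its reads may be shared with CEP170. Without CEP170P1 and CEP83-DT, 12 of 35 CEP genes were higher in this fit. CEP126 was further from 0 (-0.52, edgeR adjusted p = 0.00433). The CEP median was 0.05, less than its unadjusted 0.11, against -0.0029 for all genes. No IFT gene passed, and BBS4 did (edgeR adjusted p = 0.0379).

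The share of G and C bases moved with the outcome too: over all genes with a matched transcript the Spearman correlation of fold change and GC percentage was -0.26. Median GC was 42.6% for CEP, 48.4% for IFT, 44.2% for BBS and 49.7% for all tested genes. With length and GC adjusted together, 11 of the 12 CEP rises were kept, and 13640 genes could be fitted, of which 18.5% were higher and 14.7% lower. IFT81, IFT52 and CEP44 passed as lower in that fit, and BBS4 and CEP170P1 as higher.

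**Figure D5:**
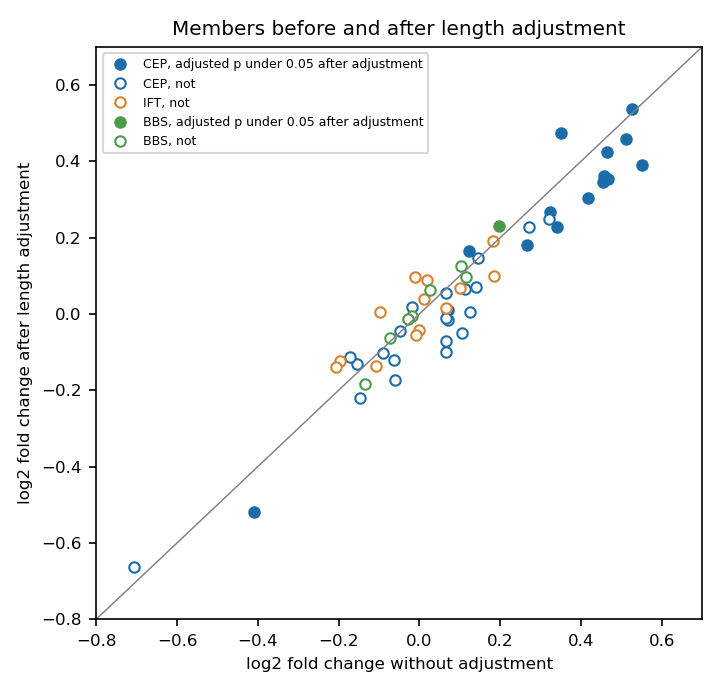
Log2 fold change after removal of the length trend (y axis) against the unadjusted value (x axis) for the 58 tested members, with the diagonal of equal values. Of the 12 CEP rises 11 still passed after the adjustment, and most lie under the diagonal, such as CEP350 (0.55 before, 0.39 after).

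Several members share exons with a gene on the opposite strand (GENCODE v29), and the strand setting of the counting is not given in the sources used here. Among the genes that rose, those with a partner listed in the files were CEP290 with C12orf29 (401 bp shared), CEP295 with TAF1D (250 bp), CEP63 with ANAPC13 (306 bp), CEP72 with TPPP (404 bp) and CEP83 with PLXNC1 (177 bp). CEP152, CEP170 and again CEP295 share exons with opposite-strand annotations that are not listed in the files (148 to 1071 bp). TAF1D was itself higher (log2 fold change 0.23, edgeR adjusted p = 0.0409). C12orf29 (0.06), ANAPC13 (-0.08) and PLXNC1 (0.16) did not pass, and TPPP was untested, with at most 11 counts per library. ZDHHC24, which shares 759 bp with BBS1, was lower (-0.37, edgeR adjusted p = 0.00455), as was RAB1A, which shares 757 bp with CEP68 (-0.18, edgeR adjusted p = 0.0302). Of the abundant members that did not pass, BBS1, BBS2, CEP95 and IFT20 also share exons with such a partner. Exons shared on the same strand occur too, whatever the strand setting. Those of BBS1 (3311 bp), IFT80 (1953 bp) and BBS5 (998 bp) are shared with annotations whose GENCODE names do not occur among the genes counted. Such an annotation may be counted under another name, and for IFT80 the readthrough gene TRIM59-IFT80 was counted. IFT43 shares 85 bp with TTLL5, which was counted. The part of all these overlaps in the values was not tested.

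Genes of the same structures that carry other names were taken from 7 lists with 149 genes, 145 of them tested: 32 were higher (22.1%), 10 lower (6.90%), beside 12.2% and 11% of all genes, with a median log2 fold change of 0.09. After the length adjustment 26 were higher (17.9%) and 12 lower, beside 12.4% and 13.2% of all genes. Counts of single lists are without the length adjustment unless stated, and are to be read against these shares. Centriole duplication and structure gave 9 rises and no fall in 29 genes (median 0.17, median length 5018 bp). After the length adjustment this list gave 6 rises and 0 falls (median 0.12). Its largest unadjusted rises were SASS6, the cartwheel hub (0.44 on the log2 scale), TUBE1, epsilon tubulin (0.44), and CCP110, the capping partner of CEP97 (0.40). TUBE1 missed the threshold without control 2 or labelled knockdown 2 (edgeR adjusted p up to 0.0592).

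Satellites, distal appendages and ciliogenesis factors gave 9 rises and 2 falls in 25 genes (median 0.19, median length 6026 bp). After the length adjustment there were 7 rises and 2 falls (median 0.07). The largest unadjusted rises were ALMS1, a very large centriole protein (0.60, 12922 bp), SSX2IP, a satellite protein (0.49, 6026 bp), and the myosin MYO5A (0.45, 12224 bp). Gamma tubulin and augmin complexes, which nucleate microtubules, gave 3 rises and 2 falls in 20, near the shares of all genes. The falls were the small subunits MZT2B (-0.41) and MZT2A (-0.39), near-identical copies whose reads cannot be fully told apart, and TUBGCP6 (0.25) was among the rises. MZT2A and TUBGCP6 lost their call without single libraries (edgeR adjusted p up to 0.0808 without control 2 or labelled knockdown 2, and up to 0.0963 without control 2, control 3 or labelled knockdown 2).

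IFT subunits and motors under other names gave 3 rises and 3 falls in 20 genes (15% each, near the shares of all genes, median 0.04). DYNC2H1, the heavy chain of the retrograde motor (0.66), and the IFT-A subunits WDR19 (0.44) and WDR35 (0.43) rose. WDR19 and WDR35 carry no IFT symbol, so they are not counted among the IFT genes above. The lowest value of the list was -0.28, and after the length adjustment it gave 3 rises and 4 falls. DYNC2H1 missed the threshold without control 2 or labelled knockdown 3 (edgeR adjusted p up to 0.0632). Among 12 BBSome partners SDCCAG8 rose (0.27), a call lost without control 2 or labelled knockdown 2 (edgeR adjusted p up to 0.0860). Of 21 tested transition zone genes 4 rose and 1 fell, including TMEM231 (0.52), RPGRIP1L (0.42) and B9D2 (-0.59). RPGRIP1L lost its call without control 2 or labelled knockdown 3 (up to 0.102) and B9D2 without control 2, control 3, labelled knockdown 2 or labelled knockdown 3 (up to 0.147). Ciliary membrane and Hedgehog genes gave 3 rises and 2 falls in 21, also near those shares, with EVC (0.49), GLI2 (0.33) and ARL3 (-0.33) the largest.

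Multiciliated cell markers gave no call without adjustment in 9 tested of 21 genes, with DNAI2 at 0 counts. The summed list was at 62.2 to 67.3 CPM in the control and 65.6 to 70.5 CPM in the labelled knockdown. After the length adjustment 1 of the 9 was higher (11.1%, beside 12.4% of all genes). With length and GC adjusted, 3 of the 9 were higher, beside 18.5% of all genes. Cycling cell markers gave 2 rises, CENPF (10290 bp) and MKI67 (12714 bp), and 4 falls, BIRC5, KIF20A, AURKA and CCNB1, in 20 genes. These were 10% and 20%, beside 12.2% and 11% of all genes, and the same genes were called after the length adjustment. Their list had a median log2 fold change of -0.03 and summed levels of 3115 to 3315 CPM against 3178 to 3505 CPM. Their part in the CEP result was not tested.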

How the data were processed

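RNA libraries were prepared with a stranded total RNA kit, as the labels' protocols state. According to the submitters' processing notes, FastQC, MultiQC, Trim Galore and HISAT2 were used with build hg19; versions, the counting tool, its strandedness and its annotation were not given in the sources used here. The authors deposited whole-number counts per gene and FPKM for each library. FPKM served to recover the authors' gene lengths, whole within 0.001 for all 21754 genes with a count. Columns of other samples numbered 0.

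Counts were fitted in R 4.3.3 with edgeR 4.0.16 (filterByExpr, TMM, glmQLFit and glmQLFTest, group as the only term, all 6 libraries). A gene was called at a Benjamini-Hochberg adjusted p under 0.05 over all 14315 tested. CPM use TMM-scaled totals. Replicates were checked for duplicates: chi-square per degree of freedom was 1.95 to 8.54 between libraries of a group, above sampling noise. The length adjustment was a lowess of span 0.3 per library, used as offset, and length with GC used mgcv 1.9.3. Alternatives were RLE size factors, DESeq2 1.42.0, limma-voom 3.58.1, other filters, a replicate block and leaving out libraries. Length with GC, and leaving out both libraries numbered 1, were added after seeing the data. Scripts were tested on simulated data. Named were TRIM25, all called members, the 3 most abundant per length in each family and up to 3 called genes per other list; other genes in the text were chosen after their values were seen. Members, lists and roles were chosen with earlier results of these data known, and lists were compiled from general knowledge. Promoters come from RefSeq and GC from GENCODE v29, matched for 95.28% of tested genes and all 58 tested members. The values of 1 tested member, which did not pass, are not reported here.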

Additional observations from a re-analysis of the deposited data

How the results depend on the processing

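The sample numbers gave no sign of pairing: same-numbered deviations correlated at -0.19, 0.01 and -0.22. These values carry the length trend of each library, so they cannot exclude pairing. With the replicate number as a block, 967 genes were higher and 924 lower in place of 1753 and 1577, 10 of the 12 CEP rises were kept (CEP135 and CEP83 were lost), 0 CEP genes were lower, and the other lists gave 20 higher (also 20 with length) and 4 lower. Without both libraries numbered 1, the counts were 2957 and 2769 for all genes, 2 higher and 1 lower for IFT, 1 higher for BBS, and 54 and 21 for the other lists. Leaving out single libraries gave 930 to 2622 genes higher, 866 to 2319 lower, 7 to 16 CEP higher, 0 to 1 CEP lower, 0 to 2 IFT higher, 0 to 1 BBS higher, 16 to 49 and 3 to 14 in the other lists, and 8 to 14 higher and 1 to 3 lower CEP genes after the length adjustment. The CEP median log2 fold change then ranged from 0.090 to 0.15, and was 0.054 with length adjusted and 0.055 with block and length. DESeq2 gave 0 CEP lower and 5 lower in the other lists. Length gave 1 BBS gene higher; length with GC gave 2 CEP lower, 2 IFT lower and 1 BBS higher. The IFT median ranged from -0.0096 to 0.033 and the BBS median from -0.018 to 0.044 without single libraries. Uncalled values near 0 changed sign. CEP95 ranged from -0.056 to 0.031 without single libraries and was 0.017 with length, 0.015 with block and length and 0.025 without both libraries numbered 1. IFT20 ranged from -0.055 to 0.072 and was 0.097 with length, 0.10 with block and length and 0.077 with length and GC. IFT57 ranged from -0.010 to 0.046 and was -0.014 without both libraries numbered 1. BBS2 ranged from -0.019 to 0.095, with -0.019 without both libraries numbered 1, and BBS1 from -0.088 to 0.034, with 0.049 with length and GC. The causes were not tested. The intervals of single IFT and BBS genes limit what can be said of them.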

Other observations

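The gene sets given here were chosen after their values were seen. Within the Hedgehog pathway, which signals through the cilium, PTCH1, the receptor and a usual target gene, read 91.1, 85.7 and 81.6 CPM in the control and 68.8, 72.3 and 70.8 CPM in the labelled knockdown (log2 fold change -0.28 ± 0.07 SE, edgeR adjusted p = 0.00597, and -0.42 after the length adjustment). GLI2, a transcription factor of the pathway, went the other way, from 41.4, 37.5 and 37.9 CPM to 50.3, 48.7 and 47.1 CPM (0.33 ± 0.07, edgeR adjusted p = 0.00322, and 0.23 after the length adjustment). The groups did not overlap for either gene. GLI1, another target gene, read 2.90, 2.76 and 2.86 CPM against 1.91, 1.85 and 2.19 CPM and did not pass (-0.49 ± 0.20, edgeR adjusted p = 0.0822). SMO, the signal transducer (-0.23), SUFU, an inhibitor (-0.0022), and GLI3 (0.05) did not pass either. After the length adjustment SMO passed narrowly (-0.24, edgeR adjusted p = 0.0499), and GLI1 (-0.50, edgeR adjusted p = 0.0729), SUFU and GLI3 did not.

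Of 9 centriole genes linked to inherited microcephaly, picked by hand and no complete list, CEP152, CEP135, CEP63, CENPJ and SASS6 rose. Of all genes 12.2% rose, and 9.29% to 27.6% in the length bins that hold these 9. CEP135 lost its call in 5 of the 6 fits that left out a library. STIL (log2 fold change 0.17), WDR62 (0.10), CDK5RAP2 (0.13) and MCPH1 (0.14) did not pass. Because the set was picked after its values were seen, its count is no result about such genes as a group. PCNT, a scaffold of the pericentriolar material that was not put in this set, had 0.21 with an edgeR adjusted p of 0.0509, and 0.07 after the length adjustment. The small calcium-binding proteins CETN2 (-0.19) and CETN3 (-0.05) did not pass.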
